A study of Mus musculus with 503 samples.

Results

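Perivascular cells of the uninjured adult mouse spinal cord were compared between the cells that carry a GLAST lineage label and those that do not. The mice carried 3 transgenes, GLAST-CreERT2, R26R-tdTomato and Pdgfrb-eGFP, and every cell compared here came from animals with all of them. Tamoxifen was given to all of them, and all cells are labelled female. GLAST-CreERT2 is a tamoxifen-inducible Cre driven by the gene of the glutamate transporter GLAST (Slc1a3), tdTomato is the Cre reporter, and EGFP is driven by the promoter of Pdgfrb. All cells were sorted as EGFP+ and either tdTomato+ or tdTomato-, 1 cell to a well in plates for full-length RNA libraries by Smart-seq3. Thus tdTomato marks cells in which Cre was active after tamoxifen and their progeny, and not the present level of Slc1a3. The 276 uninjured cells lie on plates 209 and 213, and 243 of them were kept because they had 200 or more genes detected, under 20% mitochondrial counts, and no Pecam1 level that passed both 1 on the ln(1 + counts per 10000) scale and the level of Pdgfrb. They are 243 of the 468 cells of the whole series kept by the same filters: 65 and 72 tdTomato+EGFP+ cells and 46 and 60 tdTomato-EGFP+ cells on plates 209 and 213. No label names an animal, so each sort was treated as 1 sample with the 2 plates as parts of it. Whether the plates hold different animals or sorting days is not known here. No test, p-value or standard error was computed from cells. Numbers of cells in a sort are those that were sorted and kept, and do not give the share of that population in the cord.

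The EGFP of this line marks the cells that sit on or along vessels: pericytes of the capillary wall, vascular smooth muscle cells (vSMCs) of arterioles and arteries, and fibroblasts in the space around larger vessels. Pericytes are known by ATP-sensitive potassium channel genes and Rgs5, vSMCs by contractile genes, and perivascular fibroblasts by collagens, small proteoglycans and Pdgfra. GLAST itself clears glutamate at astrocytes, and the GLAST-CreERT2 line is used in the cord to follow perivascular cells that contribute to the fibrotic scar.

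Kept cells held a median of 267680 counts in tdTomato+EGFP+ and 229714 in tdTomato-EGFP+ cells, and a cell held between 233 and 870504. After thinning to 20000 counts a cell, which left out 10 and 14 shallower cells, the median number of genes was 4371 and 4291.5. On both plates the tdTomato-EGFP+ cells lie in rows F to J and the tdTomato+EGFP+ cells in rows K to P, so sort and plate row cannot be told apart. Endothelial genes were present in both sorts, with a summed level of 7106 to 9039 CPM over the 4 combinations of sort and plate. The 10 astrocyte genes summed to 646 and 468 CPM in tdTomato+EGFP+ and 411 and 949 CPM in tdTomato-EGFP+ cells. Xist was at 582 to 694 CPM in the 4 combinations, and ribosomal protein genes were higher in tdTomato+EGFP+ cells by a median of 0.29 (0.15 and 0.38 on the plates).

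Expression in a sort was the sum of its cells' counts, given as CPM (counts per 1000000 gene counts of that sort). Differences are of log2(CPM + 1), tdTomato+EGFP+ minus tdTomato-EGFP+. A gene was tested when it was at 10 CPM or more in either sort with a count in 10% or more of that sort's cells, and called when the difference was 1 or more over both plates and 1 or more in the same direction within each plate. Of 10992 genes tested, 237 (2.16%) were called higher in tdTomato+EGFP+ cells and 150 (1.36%) higher in tdTomato-EGFP+ cells. The sign was the same on both plates for 54.1% of tested genes, which limits what can be read from a single difference. Of 896 genes that differed by 1 or more over both plates 387 were called and 110 had opposite signs on the plates. The median difference over all tested genes was 0.01. The gene lists read below were chosen with earlier results of these data known, and some genes are in more than 1 list. Their shares of called genes are thus a description, and calls in different lists are not separate support. Intervals of CPM are exact Poisson and those of shares of cells exact binomial, both at 95%, and since these are PCR reads they cover counting error only. In a sum over a sort, fewer cells of a type and less RNA per cell cannot be told apart.

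**Figure D1:**
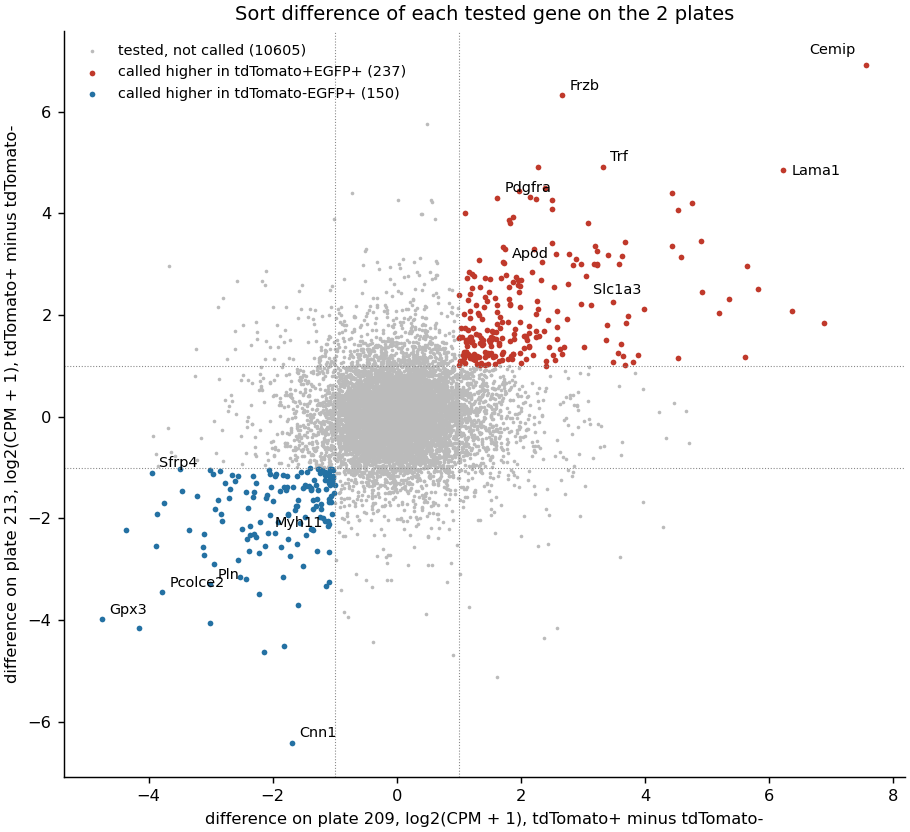
Difference of log2(CPM + 1) between the sorts on plate 213 against that on plate 209, 1 point per tested gene, with the 237 genes called higher in tdTomato+EGFP+ cells in red and the 150 called higher in tdTomato-EGFP+ cells in blue. Dotted lines mark differences of 1 and -1; Cemip and Lama1 have the highest lower value of the 2 plates, and most of the 10992 genes lie between the lines.

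Slc1a3, whose regulatory sequence drives the Cre, was at 111.3 and 284 CPM in tdTomato+EGFP+ cells of plates 209 and 213 and 12.6 and 40.5 CPM in tdTomato-EGFP+ cells, with no overlap between the sorts. Over both plates the level was 212 CPM (207 to 216) against 31.5 CPM (29.5 to 33.7), and it had a count, after thinning, in 42.5% of tdTomato+EGFP+ cells (33.8 to 51.6%) and 18.5% of tdTomato-EGFP+ cells (11.1 to 27.9%). The 32 tdTomato+EGFP+ cells with 4 or more of 8 fibroblast markers held 75.8% of the Slc1a3 counts of that sort's cells of 20000 counts or more. Pdgfrb, which drives the EGFP of every cell, differed by -0.32 and had a count in all thinned cells of both sorts.

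The 3 genes with the highest levels among the 12 named for tdTomato+EGFP+ cells were Cemip, Lama1 and Trf. Cemip, which takes part in hyaluronan breakdown, was at 254 and 305 CPM in tdTomato+EGFP+ cells of plates 209 and 213 and 0.347 and 1.53 CPM in tdTomato-EGFP+ cells (chr7:83932857-84086693, GRCm38.p6). Lama1, the laminin alpha 1 chain of basement membranes, was at 185 and 205 CPM in tdTomato+EGFP+ cells of plates 209 and 213 and 1.51 and 6.08 CPM in tdTomato-EGFP+ cells (chr17:67697127-67822645). Trf, the iron carrier transferrin, was at 319 and 604 CPM in tdTomato+EGFP+ cells of plates 209 and 213 and 31.03 and 19.1 CPM in tdTomato-EGFP+ cells (chr9:103208876-103230286). For these genes the lowest tdTomato+EGFP+ value was at least 10 times the highest tdTomato-EGFP+ value. The differences were 7.05, 5.14 and 4.34. After thinning Cemip had a count in 19.7% against 2.17% of cells, Lama1 in 16.5% against 1.09% and Trf in 32.3% against 10.9%.

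Among secreted regulators, the Wnt antagonist Frzb was at 27.3 and 79.4 against 3.47 and 0 CPM on plates 209 and 213. The hedgehog-interacting protein Hhip was at 22.2 and 16.7 against 0 and 0.0548 CPM. Wif1, another secreted Wnt inhibitor, was at 2.92 and 33.3 against 0.695 and 4.93 CPM. The ligand Wnt5a at 29.8 and 71.6 against 11.2 and 11.4 CPM and its receptor Ror2 at 3.73 and 20.6 against 0 and 0.110 CPM. In the list of 14 Wnt ligands and inhibitors, 10 were tested, 3 (Wnt5a, Wif1, Frzb) were called higher in tdTomato+EGFP+ and 1 (Sfrp4) in tdTomato-EGFP+ cells, against 2.16 and 1.36% of all genes. Gfra1, the co-receptor for GDNF, was at 20.6 and 132.97 against 0 and 5.31 CPM. All of these were called, and Frzb, Hhip, Ror2 and Gfra1 were at 0 in tdTomato-EGFP+ cells on 1 plate. Among transporters, the cystine-glutamate exchanger Slc7a11 was at 11.7 and 57.3 against 1.62 and 0.931 CPM. The sulfate transporter Slc13a4 was at 6.10 and 27.8 against 0.811 and 0.329 CPM, and the GABA and taurine transporter Slc6a13 at 374 and 518 against 136.2 and 106.4 CPM. In 12 transporters of glutamate, glycine, taurine and GABA, 11 were tested. Slc1a3 and Slc6a13 were called higher in tdTomato+EGFP+ cells and Slc6a9, the glycine transporter GlyT1, in tdTomato-EGFP+ cells. The remaining genes of the 12 highest by the naming rule were Srpx (6.03 and 27.99 against 0.347 and 0.274 CPM), the transcriptional co-activator Eya1 (20.6 and 10.4 against 0 and 0.110 CPM) and the long non-coding RNA Snhg11 (51.1 and 54.9 against 0.926 and 2.03 CPM), which is also in the list of neuronal genes. Their differences were 3.93, 3.87 and 4.34. In tdTomato+EGFP+ cells 1 cell held 58.6% of the Ror2 counts, and for the other 11 genes the top cell held 9.44 to 35.9%.

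**Figure D2:**
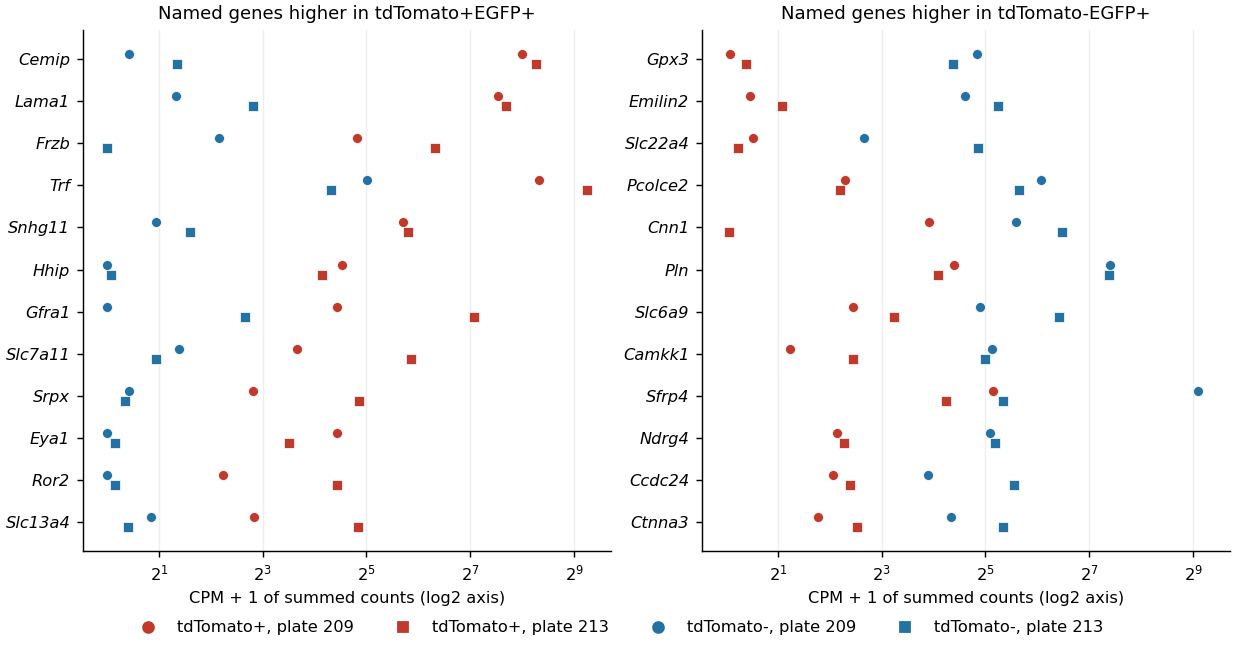
CPM + 1 of summed counts, on a log2 axis, for the 12 genes with the largest called difference in each direction, with circles for plate 209, squares for plate 213, red for tdTomato+EGFP+ and blue for tdTomato-EGFP+ cells. For each of the 24 genes both plates of one sort lie above both plates of the other, and Sfrp4 lies at 542 and 39.5 CPM on the plates of tdTomato-EGFP+ cells.

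Matrix genes were called in tdTomato+EGFP+ cells in several classes, but the fibroblast list as a whole differed between the plates. Of the 8 fibroblast markers, Col1a1 (515 and 721 against 238 and 259.6 CPM on plates 209 and 213), Lum (339 and 465 against 36.6 and 57.3 CPM) and Pdgfra (208 and 233 against 67.2 and 10.8 CPM) were called higher, and none was called lower. The list median was 1.01, with -0.001 and 1.34 on the plates. Dcn was at 877 and 1327 against 909 and 218 CPM and Col3a1 at 625 and 862 against 1060.3 and 369.9 CPM, so that both were higher in tdTomato-EGFP+ cells on plate 209 and in tdTomato+EGFP+ cells on plate 213. Of 9 small leucine-rich proteoglycans, 4 (Lum, Fmod, Prelp, Podn) were called higher in tdTomato+EGFP+ cells, where 2.16% of all genes were, and none lower. Of 16 elastic fibre genes 15 were tested and 4 (Fbn2, Fbln2, Mfap4, Efemp1) were called higher. Of 17 basement membrane genes, all tested, Lama1 and the type IV collagen chain Col4a6 were called higher. Of 9 hyaluronan genes 5 were tested, and Cemip and the hyaluronan-binding proteoglycan Vcan were called higher. Of 10 fibrillar and type VI collagens Col1a1 and Col6a1 were called higher. Of 11 other collagens 8 were tested, with Col13a1 and Col15a1 called higher and Col14a1 called lower (10.6 and 7.17 against 59.7 and 49.6 CPM).

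Other lists had calls in tdTomato+EGFP+ cells, some of them 1 call in a list, to be read against the 2.16% of all tested genes called in that direction and the 1.36% called in the other. Apod, an apolipoprotein, was at 1142 and 1418 CPM in tdTomato+EGFP+ cells of plates 209 and 213 and 344 and 174 CPM in tdTomato-EGFP+ cells and had a count in 90.6% against 58.7% of thinned cells. With the lipid transporter Abca8a it was called among 7 tested of 11 genes. The retinaldehyde dehydrogenase Aldh1a1 was at 266 and 225 against 43.9 and 65.7 CPM and Cyp1b1 at 64.005 and 82.9 against 8.57 and 12.8 CPM, 2 called of 7 tested in a list of 12. The ectonucleotide pyrophosphatase Enpp1 was at 216 and 166 against 8.11 and 17.9 CPM and its relative Enpp3 at 55.5 and 2.60 against 3.36 and 0 CPM, 2 called of 11 tested. Of 21 leptomeningeal fibroblast genes, 15 were tested and 6 (Slc13a4, Slc6a13, Igf2, Igfbp2, Lama1, Cemip) were called higher in tdTomato+EGFP+ cells, with none lower, and the list median was 0.46. Slc6a13, Igf2, Igfbp2, Lama1 and Cemip are also members of other lists here, so these calls are not separate from those. Outer meningeal layers had been removed before dissociation. Among the insulin-like growth factor genes, Igf2 was at 284 and 287 against 26.3 and 81.5 CPM, Igfbp2 at 15.6 and 17.8 against 0.116 and 7.12 CPM and Igfbp5, called in the other direction, at 101.9 and 73.98 against 659.7 and 199.9 CPM. The chemokine genes Ccl2 (17.2 and 8.24 against 6.25 and 1.31 CPM) and Ccl11 (36.8 and 92.4 against 7.29 and 39.2 CPM) were called higher, 2 of 6 tested. So was 1 of 7 tested BMP and TGF genes (Bmp7, 1.58), 1 of 10 guidance cues (Sema3b, 1.53), 1 of 14 proteases and inhibitors (Mmp19, 2.998) and 1 of 10 iron genes (Trf), single calls from which nothing is read about the lists, and 2 of 6 of the PDGF list (Pdgfra and Pdgfrl, 3.12). The connexin Gjb2 was at 124.2 and 91.3 against 10.2 and 18.2 CPM, while Gjb6 was at 117.4 and 86.4 against 3.71 and 80.2 CPM and not called. In the immune list, Csf1r (65.7 and 27.1 against 22.3 and 10.8 CPM) and C1qa (12.005 and 9.90 against 3.13 and 2.25 CPM) were called higher by the sums. Both differences turned to -2.53 and -2.47 in the mean of single-cell CPM. Ptprc was at 0.164 to 2.19 CPM over the 4 combinations.

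Contractile genes were higher in tdTomato-EGFP+ cells. Of 14 contractile genes 13 were tested, all 13 had a negative difference, 8 (Acta2, Tagln, Myh11, Mylk, Cnn1, Pdlim3, Lmod1, Pln) were called higher in tdTomato-EGFP+ cells against 1.36% of all genes. The list median was -1.61 (-1.68 and -1.45 on the plates). Myh11, the smooth muscle myosin heavy chain, was at 159.6 and 174 CPM in tdTomato+EGFP+ cells of plates 209 and 213 and 677 and 845 CPM in tdTomato-EGFP+ cells. Lmod1, which nucleates actin filaments in smooth muscle, was at 18.3 and 28.5 against 108.3 and 134.3 CPM. Pln, the phospholamban that restrains the calcium pump of the sarcoplasmic reticulum, was at 20.1 and 15.9 against 168 and 166 CPM. The potassium channel gene Kcna5 was at 5.22 and 2.19 against 53.03 and 17.8 CPM. Cnn1, the actin-binding calponin, was at 13.995 and 0.0448 against 47.1 and 87.995 CPM. In Cnn1, 1 cell held 99.1% of its tdTomato+EGFP+ counts. The difference of Acta2, smooth muscle actin, was -1.61 in the sums and 0.81 in the mean of single-cell CPM, where shallow cells weigh as much as deep ones. The list median in the mean of single-cell CPM was -1.01. Casq2 (-0.51), Smtn (-0.49), Des (-0.40) and Myl9 (-0.37) were not called. Among receptors of vasoactive signals, 1 of 9 tested of 20 was called: Ramp1, a subunit of the CGRP receptor, at 11.9 and 6.27 against 38.1 and 40.3 CPM.

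Serum response factor binds CArG boxes near many smooth muscle genes, and the promoter windows of the contractile list were searched for that motif because its members moved together. In the RefSeq windows (GRCm38.p6, 250 bases before to 50 after the start of each gene), 11 of the 14 genes have an entry and 1, Myl9, holds a CArG box on either strand (9.09%), against 1.81% of 27025 symbols. The box of Myl9 is shown in capitals, as the only match in the list, within chr2:156775283-156775332 on the plus strand.
Myl9: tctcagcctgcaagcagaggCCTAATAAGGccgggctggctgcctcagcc
The match is a description of letters in this window, and Myl9 itself was not called (1286 and 1199 against 1685 and 1563 CPM).

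Outside the contractile genes, those highest in tdTomato-EGFP+ cells by the naming rule included secreted and matrix-processing proteins. Gpx3, an extracellular glutathione peroxidase, was at 0.0622 and 0.313 CPM in tdTomato+EGFP+ cells of plates 209 and 213 and 27.4 and 19.8 CPM in tdTomato-EGFP+ cells. Emilin2, an elastin-associated glycoprotein, was at 0.373 and 1.12 against 23.5 and 36.8 CPM. Pcolce2, which enhances procollagen processing, was at 3.92 and 3.58 against 66.6 and 49.3 CPM. The secreted Wnt inhibitor Sfrp4 was at 34.3 and 17.9 against 542 and 39.5 CPM. In each of these genes the lower tdTomato-EGFP+ plate was above the higher tdTomato+EGFP+ plate, and the top cell held 23.7 to 74.7% of the tdTomato-EGFP+ counts. Without the top cell of each plate and sort the difference went from -4.27 to -1.18 for Gpx3, from -4.21 to -1.83 for Emilin2 and from -3.56 to -2.24 for Pcolce2, and that of Sfrp4 from -2.97 to -4.93. Camkk1, a kinase that activates calcium-calmodulin-dependent kinases, was at 1.37 and 4.48 against 33.9 and 30.96 CPM. Ctnna3, an alpha-catenin, was at 2.43 and 4.79 against 19.2 and 39.7 CPM, and Ndrg4 differed by -2.93. The organic cation transporter Slc22a4 was at 0.435 and 0.179 against 5.33 and 28.2 CPM, Slc6a9 at 4.48 and 8.37 against 28.6 and 84.1 CPM and Ccdc24 at 3.17 and 4.25 against 13.9 and 45.6 CPM. Without the top cells the differences of these last 3 genes went from -4.08 to -1.43, from -3.12 to -1.93 and from -2.92 to -1.61.

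Pericyte identity genes had small differences between the sorts. All 14 were tested and none was called in either direction, where 2.16 and 1.36% of all genes were, so the absence of calls in 14 genes says little about this list. The list median was -0.17 (-0.03 and -0.21 on the plates), and 11 of 14 had a negative difference. Kcnj8, the pore of the pericyte potassium channel, was at 1741 and 1320.4 CPM in tdTomato+EGFP+ cells of plates 209 and 213 and 1668 and 1703 CPM in tdTomato-EGFP+ cells. Vtn, vitronectin, was at 3744 and 3109 against 3642 and 3055 CPM, and Anpep, CD13, at 139.4 and 148.95 against 110.6 and 126.95 CPM. The largest differences in the list were those of Cd248 (-0.74) and Cspg4 (-0.62), both lower on each plate in tdTomato+EGFP+ cells and both under the size of a call. In the mean of single-cell CPM they were -0.05 and -1.84. In 12 of the other lists no member was called either, the largest of them being the 78 tested ribosomal protein genes. For lists of 20 tested genes or fewer that is a common outcome at those shares. Among the 12 lists were the 13 tested Notch genes (median -0.35), 20 tested lineage transcription factors (-0.02), 12 integrins (-0.28), 13 immediate early genes (0.21), 13 interferon response genes (0.13) and 15 glycolysis genes (-0.15).

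Because a sum over a sort mixes kinds of cells, cells were also divided by a count of markers. Cells with 20000 counts or more were thinned to that number. A cell was then placed in the fibroblast-marker class with a count for 4 or more of Col1a1, Col1a2, Col3a1, Dcn, Lum, Pdgfra, Fbln1 and Mfap5. It was placed in the contractile class with 4 or more of Acta2, Tagln, Myh11, Mylk, Cnn1 and Myl9. The fibroblast-marker class took 32 tdTomato+EGFP+ cells (25.2% of those thinned, 17.9 to 33.7%) and 9 of 92 tdTomato-EGFP+ cells (9.78%, 4.57 to 17.8%). On plate 213 the shares were 29.7% and 5.66%, and on plate 209 they were 20.6% and 15.4%, where the intervals overlap (11.5 to 32.7% and 5.86 to 30.5%). The contractile class took 16 (12.6%, 7.38 to 19.7%) and 23 (25%, 16.6 to 35.1%), 1 cell of each sort was in both classes, and 78 (61.4%) and 59 (64.1%) were in neither. These classes are ranges of a marker count and not cell types: 18 and 4 cells had 3 fibroblast markers, 5 and 2 had exactly 4, and 25 and 24 had 3 contractile markers. The cells in neither class had a count for a median of 13 of the 14 pericyte genes in both sorts, against 4 and 3 in the fibroblast-marker cells.

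**Figure D3:**
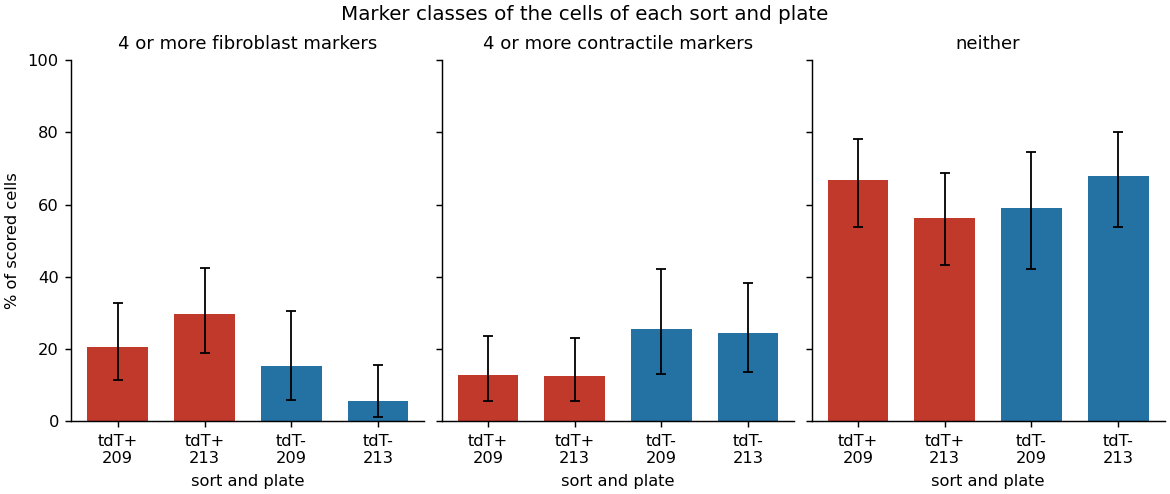
Share of cells of 20000 counts or more in the fibroblast-marker class, the contractile class or neither, for each sort and plate, with exact binomial 95% intervals that cover counting error only. Fibroblast-marker cells are 20.6% and 29.7% of tdTomato+EGFP+ and 15.4% and 5.66% of tdTomato-EGFP+ cells, and contractile cells 12.7% and 12.5% against 25.6% and 24.5%.

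The fibroblast-marker cells of tdTomato+EGFP+ held 75.9 to 99.5% of the counts of each of the 12 named genes of that sort, in cells of 20000 counts or more. This covers the named genes only. Of all 237 genes called higher in tdTomato+EGFP+ cells, 85, Apod among them, were also called in the cells outside the fibroblast-marker class. The median difference of the 237 genes there was 1.07. Those cells had a part in the calls over all cells, so this overlap is not independent of them. The 12 named genes of tdTomato-EGFP+ cells were divided. The 9 fibroblast-marker cells of that sort held 93.8 to 98.9% of the counts of Gpx3, Emilin2, Pcolce2 and Sfrp4, and the contractile cells held 85.05% of those of Cnn1 and 91.04% of those of Pln. Slc22a4, Camkk1, Slc6a9 and Ccdc24 were mostly in neither class, and for Slc22a4, Slc6a9 and Ccdc24 a single cell held 84.3, 69.02 and 66.2% of the sort's counts. Slc6a9 (chr4:117835258-117869305) and Ccdc24 (chr4:117869255-117872661) overlap in the annotation and the strand setting of the counting is not given, so their counts cannot be told apart with certainty.

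Fibroblast-marker cells of the 2 sorts differed from each other in genes that the class did not use. By the same rule of size, 1692 of 11005 genes tested in these cells (15.4%) were called higher in the 32 tdTomato+EGFP+ cells and 634 (5.76%) in the 9 tdTomato-EGFP+ cells, with 9 cells on one side. For these cells, CPM use all counts, while the numbers of cells with a count are after thinning unless stated. A cell without a count after thinning can thus hold counts before it. Slc1a3 was at 411 and 758 CPM in the tdTomato+EGFP+ cells of plates 209 and 213 and 0 and 71.8 CPM in the tdTomato-EGFP+ cells, and had a count in 25 of 32 against 1 of 9 cells. Cemip was at 1099 and 875 CPM in the tdTomato+EGFP+ cells of plates 209 and 213 and 0 and 0 CPM in the tdTomato-EGFP+ cells, so the level was at least 749 times that allowed by 3 counts in the tdTomato-EGFP+ cells. It had a count in 16 of 32 against 0 of 9 cells, where 0 of 9 allows, by the exact binomial interval, a share of up to 33.6%. Trf was at 1153 and 1893 CPM in the tdTomato+EGFP+ cells of plates 209 and 213 and 63.4 and 106.7 CPM in the tdTomato-EGFP+ cells, with a count in 24 of 32 against 2 of 9 cells. The transcription factor Tbx18 was at 99.4 and 53.2 CPM in the tdTomato+EGFP+ cells of plates 209 and 213 and 0 and 0 CPM in the tdTomato-EGFP+ cells, with a count in 14 of 32 against 0 of 9 cells. The connexin Gjb6 was at 383 against 2.56 CPM with a count in 19 of 32 against 1 of 9 cells. Each of these 5 genes had a count in 14 to 25 of the 32 tdTomato+EGFP+ cells and in 0 to 2 of the 9 tdTomato-EGFP+ cells. Of 7 astrocyte genes tested in the fibroblast-marker cells, 4 were called higher in tdTomato+EGFP+ cells (Slc1a2, Gjb6, Sox9, S100b) and none lower. Of all genes tested, 15.4 and 5.76% were called in the 2 directions. The astrocyte list had a median difference of 2.44 and summed to 930 against 396 CPM. Its members Gfap and Aqp4 were near 0 in both sorts, at 0.918 against 2.13 CPM and 1.63 against 0 CPM. Slc1a2, the other glutamate transporter of astrocytes, was at 13.7 against 1.71 CPM. Apod was present in both, at 4145 against 1442 CPM and in 30 of 32 against 8 of 9 cells, and Dcn, a marker of the class, was at 4126 against 4868 CPM.

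The tdTomato-EGFP+ fibroblast-marker cells were higher in genes of Pi16-type adventitial fibroblasts. All 14 genes of that list were tested here, 11 were called higher in tdTomato-EGFP+ cells (Pi16, Dpp4, Cd34, Ly6a, Sema3c, Cd55, Col14a1, Fbn1, Anxa3, Dpt, Hmcn2) against 5.76% of all genes tested, and 1 (Col15a1) was called higher in tdTomato+EGFP+ cells. The list median was -2.35 (-1.40 and -2.87 on the plates). Over all cells of the sorts the same list had a median of -0.15 with 2 of 13 tested called higher in tdTomato-EGFP+ cells. Pi16, a secreted peptidase inhibitor, was at 956 and 207 CPM in the tdTomato+EGFP+ cells of plates 209 and 213 and 2106 and 3533 CPM in the tdTomato-EGFP+ cells, with a count in 17 of 32 against 8 of 9 cells. Dpp4, the dipeptidyl peptidase CD26, was at 3.54 and 9.95 CPM in the tdTomato+EGFP+ cells of plates 209 and 213 and 416 and 396 CPM in the tdTomato-EGFP+ cells, with a count in 3 of 32 against 6 of 9 cells. Col14a1, a collagen that associates with fibrils, was at 0.272 and 2.12 CPM in the tdTomato+EGFP+ cells of plates 209 and 213 and 272 and 744 CPM in the tdTomato-EGFP+ cells, with a count in 0 of 32 against 7 of 9 cells. Pi16 was thus shared by both sorts at different levels, while Dpp4 and Col14a1 were near 0 in most tdTomato+EGFP+ cells. Outside the list, the secreted Wnt inhibitor Sfrp4 was at 89.6 against 2282 CPM with a count in 4 of 32 against 7 of 9 cells. Pcolce2 was at 6.02 against 620.1 CPM in 2 of 32 against 5 of 9 cells, and Igfbp5, a binding protein of insulin-like growth factors, was at 328 against 3563 CPM in 14 of 32 against 8 of 9 cells. The hyaluronan synthase Has1 was at 0.510 against 287 CPM in 0 of 32 against 4 of 9 cells, opposite in direction to Cemip. Per cell, the tdTomato-EGFP+ fibroblast-marker cells had a count for a median of 11 of the 14 Pi16-type genes (4 to 12) and the tdTomato+EGFP+ ones for a median of 5 (3 to 9).

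Leptomeningeal genes went both ways in these cells. Of 20 tested, 7 (Slc13a4, Slc6a13, Ptgds, Zic4, Tbx18, Lama1, Cemip) were called higher in tdTomato+EGFP+ fibroblast-marker cells and 3 (Slc47a1, Crabp2, Ogn) in tdTomato-EGFP+ ones, against 15.4 and 5.76% of all genes tested. Slc47a1, a transporter of organic cations, was at 55.5 and 15.2 CPM in the tdTomato+EGFP+ cells of plates 209 and 213 and 1077 and 57.8 CPM in the tdTomato-EGFP+ cells. Ptgds was at 42.2 against 2.13 CPM with 89.1% of its tdTomato+EGFP+ counts in 1 cell. Basement membrane genes had a median of 1.22, with Col4a4, Col4a5, Lama1, Lama2 and Lamb1 called higher in tdTomato+EGFP+ and none in tdTomato-EGFP+ cells. Fibrillar and type VI collagens had a median of -0.83, with Col3a1 and Col5a1 called higher in tdTomato-EGFP+ cells. Cell by cell and before thinning, 7 of the 9 tdTomato-EGFP+ cells had counts for Pi16, Dpp4, Col14a1, Sfrp4 and Igfbp5 and none for Slc1a3, Slc6a13, Cemip or Lama1. Of the other two, 1 of the 3 cells of plate 213 had Slc1a3 (265 CPM of that cell), Trf (391), Slc6a13 (1367) and Lama1 (391) and none of Dpp4, Col14a1 and Sfrp4. The last, of plate 209 and with 4 markers, had Trf and Slc6a13 and no Pi16, Dpp4 or Col14a1. With 6 or more markers required, a limit chosen after seeing the data that leaves 25 and 8 cells outside the contractile class, 16.9 and 6.96% of 10811 genes tested were called in the 2 directions. There the differences of Slc1a3, Cemip, Dpp4 and Col14a1 were 4.37, 10.17, -8.42 and -7.65, against 4.31, 9.91, -5.58 and -7.61 with 4 or more.

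Transcription factors and lipid genes also differed between the fibroblast-marker cells of the sorts. Among lineage transcription factors, Foxs1, Tbx18, Zic4, Osr2, Meox1 and Sox9 were called higher in tdTomato+EGFP+ fibroblast-marker cells, and Tbx15 and Osr1 in tdTomato-EGFP+ ones. Osr2 was at 26.5 against 0.427 CPM with a count in 2 of 32 against 0 of 9 cells, Tbx15 at 0.306 against 27.3 CPM with a count in 0 of 32 against 3 of 9 cells, and Osr1 at 42.1 against 222 CPM with a count in 5 of 32 against 8 of 9 cells. Of 8 tested apolipoprotein and lipid carrier genes, 5 (Apoe, Apod, Lpl, Abca8a, Ptgds) were called higher in tdTomato+EGFP+ cells and 1 (Clu) in tdTomato-EGFP+ cells, against 15.4 and 5.76% of all genes. The median was 1.66, against 0.12 over all genes tested. Apoe was at 936 and 1367 CPM in the tdTomato+EGFP+ cells of plates 209 and 213 and 174 and 571 CPM in the tdTomato-EGFP+ cells, and the lipoprotein lipase gene Lpl at 100.9 against 6.83 CPM with a count in 13 of 32 against 1 of 9 cells. Of 9 hyaluronan genes, Cemip and Hyal1, which break the polymer down, were called higher in tdTomato+EGFP+ cells, and the synthases Has1 and Has2 and the receptor Cd44 in tdTomato-EGFP+ cells. These are 2 and 3 of 9, of which the first is near the 15.4% of all genes. Pericyte genes had a summed level of 5148 against 2643 CPM in these cells, where the cells of neither class had 16369 against 17195. Of the 14 genes, 6 were called higher in the tdTomato+EGFP+ fibroblast-marker cells, against 15.4% of all genes. With 6 or more markers required, the summed level was 1808 against 783 CPM, and of 9 tested genes 6 were called higher in tdTomato+EGFP+ cells and 1 (Cd248) in tdTomato-EGFP+ cells, against 16.9 and 6.96% of all genes. Their part in the other differences was not tested.

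**Figure D4:**
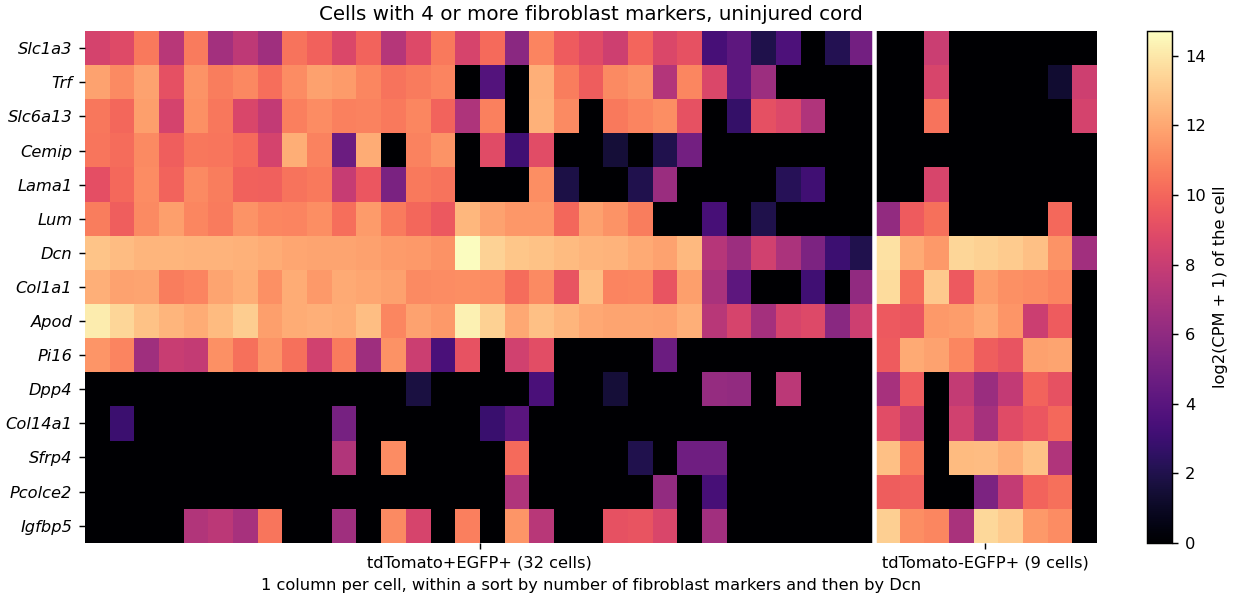
Level of 15 genes, as log2(CPM + 1) within a cell, in the 32 tdTomato+EGFP+ and 9 tdTomato-EGFP+ cells of the fibroblast-marker class, 1 column per cell, ordered within a sort by number of markers and then by Dcn; black is 0. Slc1a3, Trf, Slc6a13, Cemip and Lama1 are bright in many of the 32 left-hand columns and dark in at least 7 of the 9 right-hand ones, and Dpp4, Col14a1, Sfrp4 and Pcolce2 show the reverse.

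In the cells of neither class, which carried pericyte genes, 74 of the 237 and 41 of the 150 genes called over all cells were also called. These cells are part of those that made the calls over all cells, so overlap is built in and is not a replication. Among 78 tdTomato+EGFP+ and 59 tdTomato-EGFP+ cells 10708 genes were tested, with 236 (2.2%) and 164 (1.53%) called higher in tdTomato+EGFP+ and tdTomato-EGFP+ cells. None of the 14 pericyte genes was called and their median difference was -0.07 (-0.14 and -0.04 on the plates). Slc1a3 was at 50.5 against 39.5 CPM, a difference of 0.35, and Pdgfrb at 1798 against 2100.5 CPM. Myh11 was the 1 contractile gene called, with a difference of -1.66 and a count in 22 of 78 and 21 of 59 thinned cells. Trf was called higher in tdTomato+EGFP+ cells, at 60.2 against 18.9 CPM, with a count in 13 of 78 and 7 of 59 thinned cells. Camkk1 was at 3.66 against 44.05 CPM (-4.35 and -2.71 on the plates) with a count in 5 of 78 and 11 of 59 thinned cells. The water channel Aqp4 and Gjb6, both known from astrocytes, were called higher in tdTomato-EGFP+ cells of this class, at 2.37 against 83.3 CPM and 0.0430 against 79.4 CPM, with 77.6 and 73.1% of the counts of tdTomato-EGFP+ cells in 1 cell each. Csf1r and C1qa were called in the other direction, with 56.7 and 44.98% of the counts of tdTomato+EGFP+ cells in 1 cell each. In the contractile class, with 16 and 23 cells, Myh11 was at 1175 against 3118 CPM and Pln at 117.95 against 717 CPM, with differences of -1.27 and -1.43 for Myh11 and -2.37 and -2.81 for Pln on the plates. Myh11 is a marker of that class and Pln is not, and in that class 7.32 and 6.84% of 10991 genes tested were called in the 2 directions. Slc1a3 was among the 7.32% of genes called higher in tdTomato+EGFP+ cells of the contractile class. That class has 8 tdTomato+EGFP+ cells on each plate, and the spread of these counts over cells is not reported here.

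The called genes were read in cells that had no part in the call, the tdTomato+EGFP+ and tdTomato-EGFP+ sorts at 3 days after spinal cord injury, on plates 211 and 215. Of the genes called higher in uninjured tdTomato+EGFP+ cells, 64.04% of 228 with counts on plate 211 and 59.9% of 237 on plate 215 were higher in the same sort, against 36.8 and 36.5% of all tested genes. Of those called higher in uninjured tdTomato-EGFP+ cells, 71.9% of those with counts on plate 211 and 77.3% of 150 on plate 215 were higher in that sort, against 63.2 and 63.5% of all tested genes. The whole distribution is displaced towards tdTomato-EGFP+ cells on both injured plates, so the shares are to be read against those of all tested genes. A difference of 1 or more in the same direction on both injured plates was found for 64 of the 237 and 37 of the 150 genes, and for 2.43 and 12.1% of all tested genes. Lama1 differed by 7.29 and 4.83 on the injured plates, Frzb by 5.34 and 5.43, Slc1a3 by 3.90 and 4.87, Sfrp4 by -5.94 and -4.98 and Camkk1 by -3.61 and -4.03. Igf2 differed by -3.57 and 1.91 and had no common direction. Cnn1, Tagln and Podn went the other way on both injured plates. These genes are examples, and the shares above are those that cover all called genes.

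**Figure D5:**
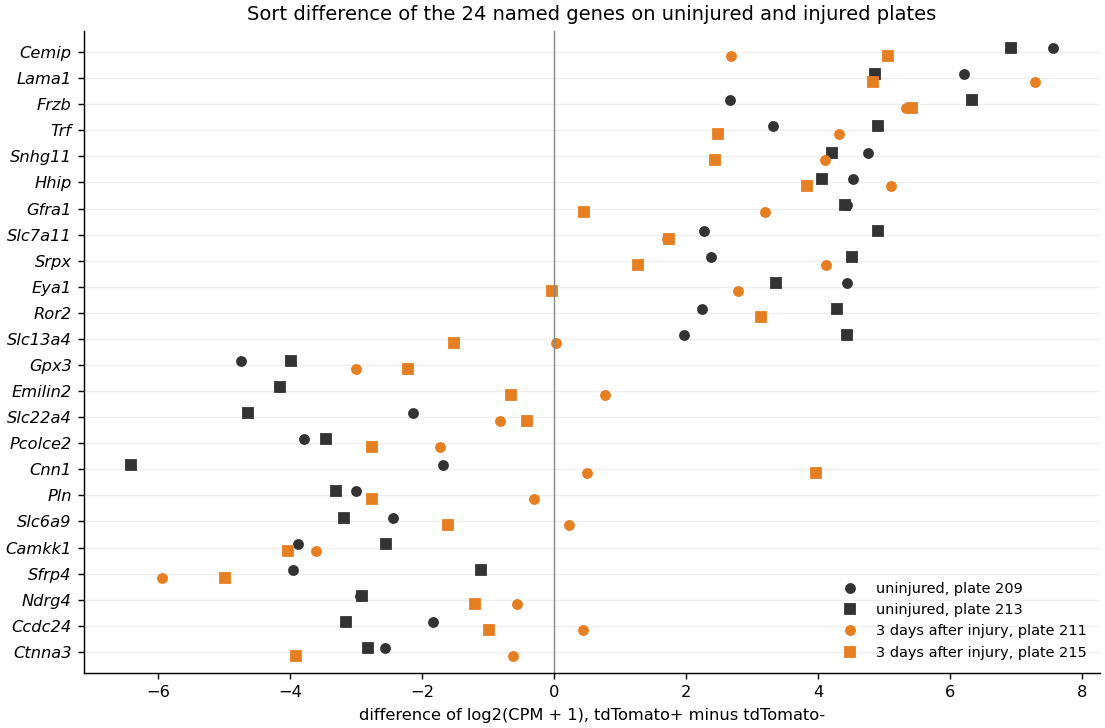
Sort difference of log2(CPM + 1), tdTomato+ minus tdTomato-, for the 24 named genes on the uninjured plates 209 and 213 (black) and on the plates of 3 days after injury, 211 and 215 (orange). Lama1, Frzb, Hhip, Camkk1 and Sfrp4 lie on the same side of 0 on all 4 plates, and Cnn1 lies at 0.49 and 3.96 on the injured plates.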

How the data were processed

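Single perivascular cells were sequenced by Smart-seq3 after tissue dissociation and fluorescence-activated sorting. The authors deposited whole-number read counts per gene and cell, not normalized, and per the labels the genome build was mm10. The aligner, the annotation and whether counting used strand are not given in the sources used here. Of 1968 cell columns, 503 match the labels and 1465 were not used, and 92 spike-in rows were left out. Counts were summed per sort and plate and expressed as CPM over gene counts, and differences used a pseudocount of 1 CPM. Since every sort is 1 sample, no statistical test was run. Named genes were the 12 called genes of each direction with the largest difference among those that kept a difference of 1 without the top cell of each plate and sort and in the mean of single-cell CPM. Other genes are named as members of the lists or as stated. The members and lists were chosen with earlier results of these data known. The script that makes the calls was tested on simulated data with known changes. Marker classes used cells thinned at random to 20000 counts. Coordinates are of RefSeq GRCm38.p6. Alternatives changed the scaling (edgeR 4.0.16 TMM, DESeq2 1.42.0 size factors), pseudocount, filters, plates and cells, and left out the top cell of each plate and sort. Python 3.11.15 with pandas 2.3.3, numpy 2.4.6 and scipy 1.17.1 and R 4.3.3 were used. Not every list member is reported here.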

Additional observations from a re-analysis of the deposited data

Results flagged for a closer look

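Each sort is 1 sample, so no group held the 4 to 10 samples that a search for an outlying sample needs. Among the 71 called genes that belong to a list or were named by the rule, 3 differed between the sorts in one direction on both uninjured plates and in the other on both plates of 3 days after injury; these differences between conditions were not tested. Cnn1 differed by -3.46 over the uninjured plates (-1.68 and -6.41) and by 0.49 and 3.96 on the injured ones. Tagln differed by -2.001 (-2.70 and -1.60) and by 0.47 and 0.86. Podn, a small leucine-rich proteoglycan, differed by 2.81 (1.87 and 3.93) and by -0.51 and -1.03. Injury and plate cannot be told apart, since no plate holds cells of both conditions.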

How the results depend on the processing

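The naming rule fixed the direction of the 24 named genes within each plate, without the top cells and in the mean of single-cell CPM, so their direction there shows nothing about stability. Of the genes called higher in tdTomato+EGFP+ and tdTomato-EGFP+ cells, 51% and 40.7% were called again after thinning, 64.1% and 54% in the mean of single-cell CPM, 76.4% and 53.3% without the top cells, 77.6% and 68.7% without the Pecam1 rule, and 2 and 3 genes in cells of 200 to 1200 genes. The counts of called genes, 237 and 150, were 98 and 47 with a pseudocount of 10 CPM, 555 and 376 with no filter on low genes, 64 and 29 with 50 CPM and a count in 20% of cells, and 54 and 29 with a difference of 2 or more. They were 978 and 775 without plate 209 and 955 and 827 without plate 213, where the rule needs 1 plate only. In the few cells of 200 to 1200 genes, 281 genes were called higher in tdTomato-EGFP+ cells, and Trf (-6.39), Snhg11 (-4.84), Gfra1 (-4.84) and Ndrg4 (0.22) had the other sign.

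The pericyte median, -0.17, was 0.075 in the mean of single-cell CPM, -0.037 thinned, -0.033 without plate 213, 0.68 in cells of 200 to 1200 genes and 0.032 without fibroblast-marker cells. The fibroblast median, 1.01, was -0.001 without plate 213, 0.587 in the mean of single-cell CPM, 0.557 thinned, 0.108 in cells of 200 to 1200 genes, 0.536 without fibroblast-marker cells and 0.369 without contractile cells as well. The contractile median, -1.61, was -1.01 in the mean of single-cell CPM, -2.13 thinned, -1.82 without the top cell of each plate and sort, 0.00 in cells of 200 to 1200 genes, -1.22 without fibroblast-marker cells, -0.50 without contractile cells and -0.29 without both. The 2 marker classes are defined by members of the fibroblast and contractile lists. Leaving out a class thus changes the median of its own list in part by that selection, which shows nothing about stability.

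Without fibroblast-marker cells Gfra1 (-1.69), Eya1 (-0.063), Emilin2 (0.11), Pcolce2 (1.11) and Sfrp4 (0.13) had the other sign, and without contractile cells as well Gfra1 (-1.91), Slc7a11 (-0.15), Eya1 (-0.085), Emilin2 (0.31), Pcolce2 (0.47) and Sfrp4 (0.13). The cause of these changes was not tested.

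Both sorts lie on each plate, and differences were also taken within each plate. No pairing by animal was possible, because no label names an animal. Depth limits genes near 10 CPM and shares in the 9 tdTomato-EGFP+ fibroblast-marker cells, where 0 cells allow up to 33.6%.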

Other observations

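Other called genes, chosen after their values were seen, fall into small groups. Beside Hhip, the hedgehog target gene Gli1 was higher in tdTomato+EGFP+ cells (14.6 against 1.56 CPM, difference 2.60). The lipid transporter genes Abca6 (2.45) and Abca9 (2.25) were called in the same direction as Abca8a. Spp1, osteopontin, was at 364 against 36.7 CPM (difference 3.28, but -0.12 in the mean of single-cell CPM), the neurotrophin receptor gene Ngfr at 45.8 against 4.76 CPM, the cytokine gene Il33 at 243 against 41.1 CPM, the arginase gene Arg1 at 22.1 against 2.34 CPM and Kl, klotho, at 13.6 against 0.818 CPM, each higher on both plates.

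In the other direction, further muscle genes outside the contractile list were called higher in tdTomato-EGFP+ cells: Speg (23.9 against 81.3 CPM), Fhl1 (33.9 against 124.7 CPM), Tpm2 (150.7 against 338 CPM), Rbm24 (3.91 against 14.5 CPM) and Akap6 (9.61 against 36.1 CPM). The potassium channel subunit gene Kcnab1 had a difference of -2.50 and the amine oxidase gene Aoc3 one of -2.34. The cells left out by the Pecam1 rule were 21 tdTomato+EGFP+ and 11 tdTomato-EGFP+ cells.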
